A study of Mus musculus with 11 samples.

Results

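Endothelial cells line the blood vessels that run through the limb bud, and the transcripts of 10 genes typical of them were followed here in mouse forelimb buds dissected at E10.5. The genes were chosen by name as markers of limb vessels: Pecam1, Cdh5, Kdr, Tek, Tie1, Emcn, Cldn5, Egfl7, Flt1 and Sox18. All 10 were found once among the 47517 rows of the deposited gene count table, and all 10 were among the 15821 genes with enough reads to be tested. Mutant embryos were Gmnn f/f; Prx-Cre and control embryos were Gmnn +/f; Prx-Cre, all on a C57BL/6 background. Every embryo therefore carried Prx-Cre, and the controls had 1 intact allele of Gmnn, the gene for Geminin, a protein that restrains DNA replication licensing. There were 5 control and 6 mutant libraries of ribosome-depleted total RNA from 4 litters, here named A to D. Controls 1 and 2 and mutants 1 and 2 were littermates (A). Control 3 was matched with mutant 6 (B) and control 4 with mutant 5 (C), while control 5 had 2 mutant littermates, numbers 3 and 4 (D).

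The first vessels of the limb bud are laid down by angioblasts, most of which come from the somites, and they form a capillary plexus in the mesenchyme. Vascular endothelial growth factor (VEGF) made by the mesenchyme acts on the receptors Kdr and Flt1 of these cells, and angiopoietins act on the receptor Tek. Prx-Cre is known to act in the limb bud mesenchyme, the tissue around the vessels, rather than in the endothelium. In bulk tissue, fewer endothelial cells and less RNA per endothelial cell cannot be told apart.

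Total counts were 14721181 to 19733288 per library, and the 10 genes together held 3091 to 6624 reads. Gmnn itself, the check of the labels, averaged 179.6 ± 40.2 CPM (counts-per-million of the library) in controls and 115.3 ± 16.1 CPM in mutants (SD, n = 5 and 6). In the edgeR fit it was lower in mutants by a log2 fold change of -0.67, with SE 0.10 and an adjusted p of 0.0291. Leaving out 1 library at a time lost that call in 8 of 11 fits, with an edgeR adjusted p of up to 0.139 and the same direction in all. Without the litter block it was 0.0501. Globin transcripts, from the primitive red cells in the vessels, were 1.34 to 3.30% of counts in controls and 1.69 to 5.44% in mutants. Mutant 2 stood apart with 5.44%, the most globin of the 11 libraries, and it had the lowest summed CPM of the 10 genes. Control 2 had the second most globin (3.30%) and the highest sum. The labels speak of paired embryos but do not say whether a library is 1 embryo or a pool, and the p-values measure the spread between these libraries.

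Reads of every member were found in every library, from 53 reads for Tek in mutant 2 to 1811 for Emcn in control 2. A further 34 genes of endothelial cells, such as Cd93, Cd34 and Eng, were all expressed highly enough to be tested. Within the 11 libraries the members tended to be high or low together: 44 of their 45 pairs had a positive Pearson r of log2 CPM, with a median of 0.436. The pairs share library and scaling, so this is a description. The highest r was that of Cdh5 with Flt1 (0.945), followed by Kdr with Emcn (0.836), and the lowest was that of Pecam1 with Egfl7 (-0.148).

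Promoters are shown for 4 members: the 2 genes of the pair Kdr and Emcn, the second VEGF receptor Flt1, and Tek, the member that varied most between libraries. The bases just before the start site are from RefSeq (GRCm38.p6, the same coordinates as mm10) and read 5′ to 3′ on the gene's strand, trimmed to end before the first annotated exon base. The windows are chr5:75978459-75978705 on the minus strand for Kdr, chr3:137340828-137341066 on the plus strand for Emcn, chr5:147726012-147726261 on the minus strand for Flt1 and chr4:94739039-94739288 on the plus strand for Tek. Capitals mark GGAAG or its reverse complement CTTCC, a form of the sites bound by ETS factors, the transcription factor family best known in endothelial genes. Other forms of these sites were not searched, so 0 matches does not mean that none is present.
Kdr: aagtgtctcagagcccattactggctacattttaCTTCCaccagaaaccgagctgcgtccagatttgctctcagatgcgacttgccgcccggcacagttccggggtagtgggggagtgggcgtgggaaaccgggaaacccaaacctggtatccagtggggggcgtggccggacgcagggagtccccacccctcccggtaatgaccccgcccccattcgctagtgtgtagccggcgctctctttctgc
Emcn: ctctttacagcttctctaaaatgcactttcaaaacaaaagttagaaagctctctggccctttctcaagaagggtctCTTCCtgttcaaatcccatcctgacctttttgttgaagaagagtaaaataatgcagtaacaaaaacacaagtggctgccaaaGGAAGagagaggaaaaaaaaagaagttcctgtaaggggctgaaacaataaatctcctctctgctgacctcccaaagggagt
Flt1: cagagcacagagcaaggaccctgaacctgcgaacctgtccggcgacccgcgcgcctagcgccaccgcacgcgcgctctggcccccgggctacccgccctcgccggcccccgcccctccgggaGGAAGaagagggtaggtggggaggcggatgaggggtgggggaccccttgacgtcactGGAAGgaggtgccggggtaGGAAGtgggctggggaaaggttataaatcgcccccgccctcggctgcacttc
Tek: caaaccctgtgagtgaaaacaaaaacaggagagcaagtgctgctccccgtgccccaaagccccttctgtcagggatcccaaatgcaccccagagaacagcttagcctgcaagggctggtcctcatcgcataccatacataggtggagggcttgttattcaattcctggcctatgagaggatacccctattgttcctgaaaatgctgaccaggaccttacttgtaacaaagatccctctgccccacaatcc
In the 250 bases before the start, Flt1 had 3 matches, Emcn 2, Kdr 1 and Tek 0. The motif was searched on both strands, and GGAAG and CTTCC cannot overlap each other. Of all 32851 RefSeq mouse promoters in the table, 64.1% held at least 1 match in a window of that length, with a mean of 1.09. Of the 9 promoters of the 7 members that matched the table, 6 held one, in 5 of the 7 members. Such a share is near that of all promoters, and a match is a description of the letters, not a bound site. Pecam1, Cdh5 and Sox18 are named only.

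No member passed the test between genotypes. By edgeR's quasi-likelihood F test with litter as a block and Benjamini-Hochberg adjustment over all 15821 genes, 0 of the 10 genes differed at an adjusted p under 0.05, where 2.18% of all genes did (345 genes, 111 higher and 234 lower in mutants). The share of higher genes among these calls was 32.2%, and 43.1% with upper-quartile scaling. At an unadjusted p under 0.05 the count was also 0 of 10, against 21.4% of all genes. DESeq2 and limma-voom also called 0 of the 10. The log2 fold change was positive in 6 members and negative in 4, with a median of 0.06, where the median of all genes was 0.0038. For all 10 genes the 95% interval of the effect included 0. The interval lay wholly below a 2-fold rise in 10 of 10 genes and wholly above a 2-fold fall in 9 of 10, Tek being the exception.

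**Figure D1:**
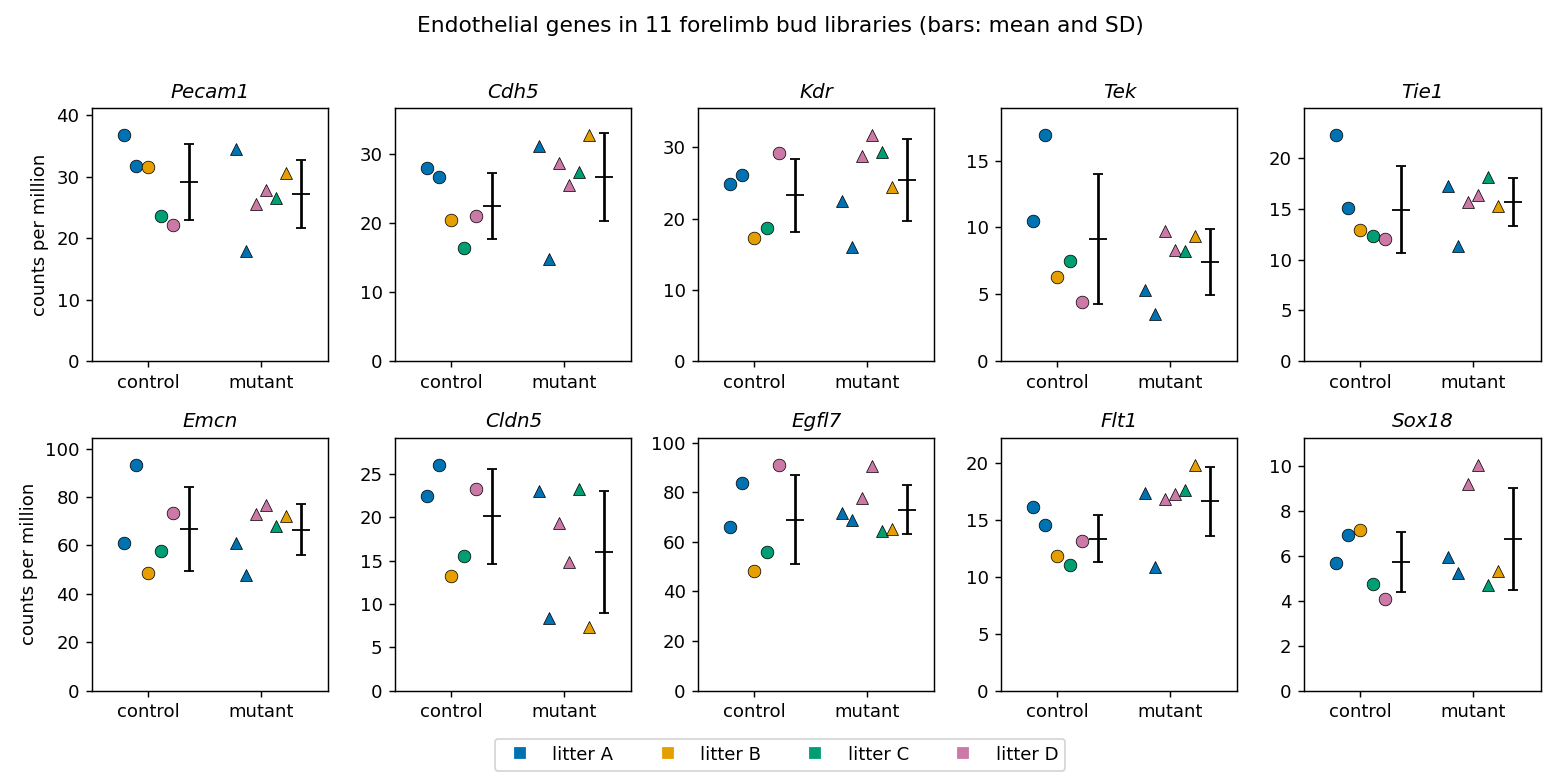
Each panel shows 1 gene in CPM (linear axis from 0) in the 5 control (circles) and 6 mutant (triangles) libraries, coloured by litter, with the group mean and SD as bars. The groups overlap in all 10 panels, and the low mutant triangle of litter A in most panels is mutant 2.

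Kdr and Flt1 are the VEGF receptors of blood vessels. Kdr (VEGFR2, chr5:75932827-75978458, minus strand) carries most of the growth signal. Its level was 24.9, 26.2, 17.2, 18.8 and 29.3 CPM in controls 1 to 5. The mutants ran from 16.01 to 31.7 CPM, with a median of 26.6 CPM. The groups overlapped, with mutant 2 lowest of all 11 libraries and mutant 4 highest. Mutants over controls, the log2 fold change was 0.07 (SE 0.16, 95% interval -0.27 to 0.41, edgeR adjusted p 0.838).

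Flt1 (VEGFR1, chr5:147561604-147726011, minus strand) binds VEGF tightly and, in part as a soluble form, limits what reaches Kdr. Its level was 16.2, 14.6, 11.8, 11.04 and 13.1 CPM in controls. Mutant values spanned 10.9 to 19.8 CPM, with a median of 17.3 CPM. Of the 6 mutants, 5 lay above every control and mutant 2 lay below every control. Flt1 had the smallest p of the 10 genes, with a log2 fold change of 0.31 (SE 0.16, 95% interval -0.03 to 0.66, edgeR unadjusted p 0.0732, adjusted p 0.284). Without mutant 2 the value was 0.46 (edgeR adjusted p 0.0674).

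Tek and Tie1 are a pair of related receptor kinases on chromosome 4. Tek (Tie2, chr4:94739289-94874976, plus strand) is the receptor of the angiopoietins and holds vessels in a quiescent state. Its level was 10.5, 16.9, 6.33, 7.49 and 4.41 CPM in controls 1 to 5. Mutants 1 to 6 had 5.32, 3.51, 9.74, 8.32, 8.27 and 9.39 CPM. Control 2 was highest and mutant 2 lowest, and the range of the controls contained 5 of the 6 mutants. Its log2 fold change was -0.25 (SE 0.37, 95% interval -1.07 to 0.56, edgeR adjusted p 0.749). This was the widest interval of the 10 genes. Without mutant 2 the sign turned, to 0.06 (edgeR adjusted p 0.947).

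Tie1 (chr4:118471191-118490061, minus strand) has no ligand of its own that is well established and modulates Tek. Its level was 22.3, 15.1, 12.98, 12.4 and 12.1 CPM in controls. Among the 6 mutants the range was 11.4 to 18.2 CPM, with a median of 16.03 CPM. Control 1 was the highest library, the other 4 controls lay within the range of the mutants, and mutant 2 was the lowest. The log2 fold change was 0.10 (SE 0.18, 95% interval -0.28 to 0.49, edgeR adjusted p 0.788).

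Pecam1, Cdh5 and Cldn5 hold endothelial cells together. Pecam1 (CD31, chr11:106654217-106750628, minus strand), an adhesion molecule of cell borders and also of platelets and some white cells, was at 36.8, 31.7, 31.7, 23.6 and 22.1 CPM in controls. In mutants it ran from 17.9 to 34.6 CPM, with a median of 27.2 CPM. Control 1 was highest and mutant 2 lowest, and the groups overlapped. Mutants over controls, the log2 fold change was -0.06 (SE 0.16, 95% interval -0.41 to 0.29, edgeR adjusted p 0.880). Without mutant 2 it was 0.10 (edgeR adjusted p 0.591).

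Cdh5 (VE-cadherin, chr8:104101625-104144502, plus strand) is the cadherin of endothelial adherens junctions. Its level was 28.1, 26.7, 20.5, 16.4 and 21.02 CPM in controls. The mutants ran from 14.9 to 32.8 CPM, with a median of 28.1 CPM. As with Flt1, mutant 2 was the lowest of the 11 libraries, while 3 of the mutants were above the highest control. Its log2 fold change was 0.26 (SE 0.20, 95% interval -0.16 to 0.69, edgeR adjusted p 0.473). Without mutant 2 it was 0.46, with an edgeR adjusted p of 0.0514. Without control 3, control 4, mutant 5 or mutant 6 it was 0.15 to 0.17, with an adjusted p of 0.742 to 0.769.

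Cldn5 (chr16:18776847-18778260, plus strand), a claudin of endothelial tight junctions, was at 22.5, 26.1, 13.2, 15.5 and 23.3 CPM in controls. Mutants 1 to 6 had 23.1, 8.34, 19.4, 14.8, 23.3 and 7.36 CPM. Mutants 2 and 6 lay below every control, and the other 4 mutants lay within the control range. The log2 fold change was -0.39 (SE 0.25, 95% interval -0.93 to 0.14, edgeR adjusted p 0.390). Without mutant 2 it was -0.20 (edgeR adjusted p 0.602), and without control 4 or mutant 5 it was -0.62 in each case (0.189 and 0.192). Cldn5 passed the threshold in 1 alternative, the fit without a filter on low counts (-0.40, edgeR adjusted p 0.0365). That fit called 1566 of 29256 genes.

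Emcn and Egfl7 were the members with the most reads. Emcn (endomucin, chr3:137341067-137432185, plus strand) is a sialomucin of the endothelial surface that is strongest on capillaries and veins. Its level was 60.96, 93.2, 48.5, 57.6 and 73.6 CPM in controls. Mutant values spanned 47.8 to 76.9 CPM, with a median of 70.1 CPM. The lowest value was again that of mutant 2 and the highest that of control 2, and the group means differed by less than 1 SD. Mutants over controls, the log2 fold change was -0.03 (SE 0.16, 95% interval -0.38 to 0.31, edgeR adjusted p 0.938).

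Egfl7 (chr2:26580014-26593120, plus strand) encodes a secreted protein that endothelial cells deposit in their matrix, and its locus holds the microRNA gene Mir126a. Its level was 65.9, 83.6, 48.4, 55.8 and 91.02 CPM in controls. Among the 6 mutants the range was 64.6 to 90.6 CPM, with a median of 70.1 CPM. All 6 mutants lay inside the control range, and mutant 2 was not the lowest of them. Its log2 fold change was 0.05 (SE 0.10, 95% interval -0.16 to 0.27, edgeR adjusted p 0.803), the narrowest interval of the 10. Of its exon bases, 11.2% are shared with Agpat2, Gm20532, Mir126a or Mir126b in GENCODE M21, and the header records no strand option, so its count is less certain than the others. The other 9 members share none.

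Sox18 (chr2:181669836-181671640, minus strand) is the transcription factor among the members and acts early in arterial and lymphatic fate. It had the fewest reads in 7 of the 11 libraries, 58 to 169 per library. Its level was 5.71, 6.95, 7.14, 4.76 and 4.06 CPM in controls. Mutants 1 to 6 had 5.96, 5.23, 9.20, 10.1, 4.71 and 5.34 CPM. The 2 mutants of litter D were the highest of the 11 libraries, the control of that litter was the lowest, and the other mutants lay within the control range. The log2 fold change was 0.12 (SE 0.22, 95% interval -0.36 to 0.61, edgeR adjusted p 0.797).

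Summed over the 10 genes, the level was 293.7, 341.0, 217.8, 223.4 and 294.0 CPM in controls 1 to 5. In mutants it ran from 204.5 to 319.4 with a median of 289.0 CPM. The means were 274.0 ± 52.4 CPM (SD, n = 5) and 281.4 ± 40.0 CPM (SD, n = 6), which differ by less than the spread within either group. Mutant 2 was the lowest of the 11 libraries in 7 of the 10 genes and above a gene's median over libraries in 0 of them.

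**Figure D2:**
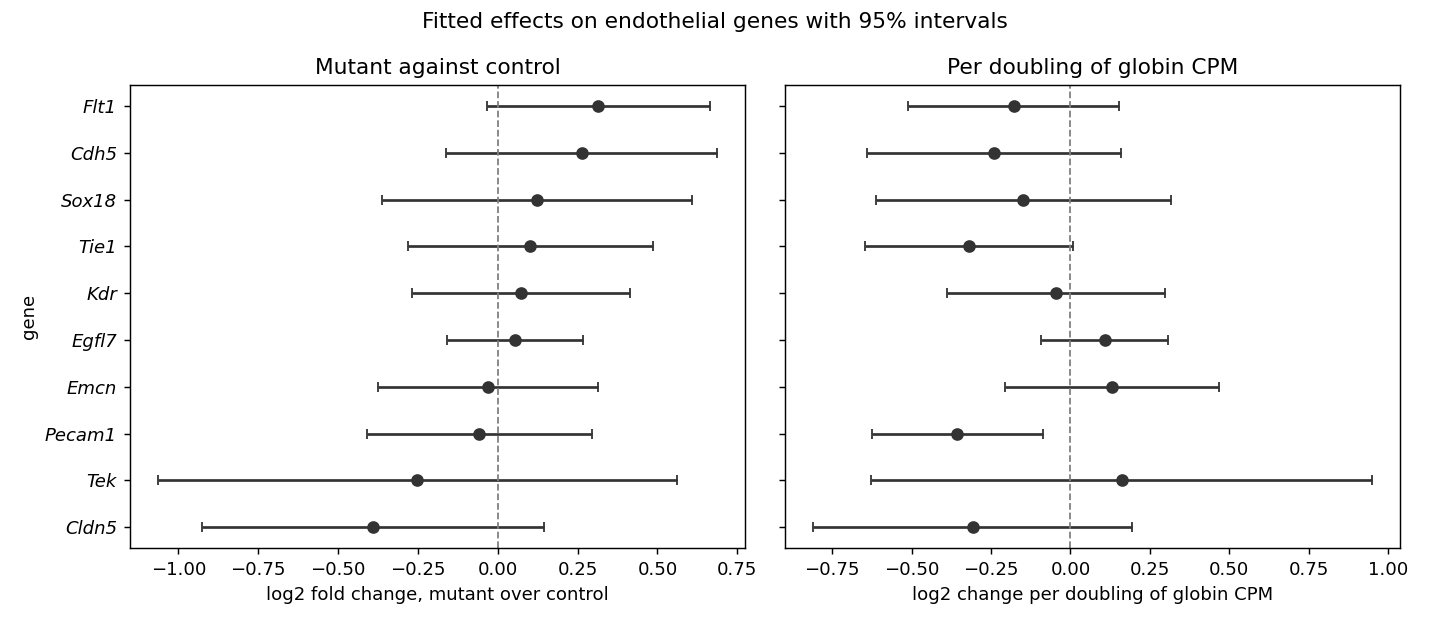
For each of the 10 genes, the left panel shows the fitted log2 fold change of mutant over control and the right panel the fitted log2 change per doubling of globin CPM, with 95% intervals as bars and 0 dashed. All 10 intervals on the left and 9 of 10 on the right include 0, Pecam1 on the right being the exception.

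Of the other settings, leaving out litter A and adding an index of T runs gave the highest medians. Leaving out litter A gave a positive log2 fold change in 9 of the 10 genes, with a median of 0.34, an unadjusted p under 0.05 in 6 and an adjusted p of at least 0.109 (edgeR). Leaving out litter B, C or D gave 4, 4 and 5 positive values, with medians of -0.027, -0.029 and -0.022. The T-run setting adds a measure of runs of T in each library's transcripts, here the mean longest run of T weighted by log2 CPM. This index was 9.36 to 9.50 in controls and 9.26 to 9.45 in mutants. With that index as a covariate all 10 values were positive, with a median of 0.51, an unadjusted p under 0.05 in 4 and an adjusted p of at least 0.183 (edgeR). The longest run of T in the members' own transcripts was 4 to 13 bases, and the part of the index in these values was not tested. In the main fit 21.4% of all genes had an unadjusted p under 0.05 (edgeR). That share was not counted without litter A or with the index. At an adjusted p under 0.05, 9 of 15091 genes were called without litter A and 2 of 15821 with the index (edgeR).

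The sign of the genotype difference varied between litters. In litter A, with 2 libraries of each genotype, the mutant mean was below the control mean in all 10 genes. In litters B, C and D it was above in 7, 9 and 8 of the 10. Mutant 2 of litter A was the lowest of the 11 libraries in 7 of the 10 genes. Its littermate mutant 1 lay above both controls there in Cdh5 (31.29 against 28.08 and 26.72 CPM) and Flt1 (17.35 against 16.16 and 14.57). Mutant 1 lay below both in Kdr and Tek and between them in the other genes. No gene had the same sign in all 4 litters, where 26% of all genes tested did. Nor did the groups separate in any member, where 2.59% of all genes had no overlap between control and mutant libraries.

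Tek differed most between litters. Its mutant minus control difference in mean log2 CPM was -1.59 in litter A, 0.56 in litter B, 0.14 in litter C and 1.01 in litter D. Both controls of litter A lay above every mutant of any litter, and the control of litter D lay below both of its mutants. The genotype by litter interaction had an edgeR unadjusted p of 0.00141 for Tek, but an adjusted p of 0.962.

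Sox18 stood at -0.17, -0.41, -0.01 and 1.22 in litters A to D, so that only litter D was positive (edgeR interaction p 0.0125 unadjusted, 0.962 adjusted). Kdr stood at -0.43, 0.50, 0.64 and 0.04 (0.0259 unadjusted, 0.962 adjusted, edgeR). Flt1 was -0.16, 0.74, 0.67 and 0.38, and Cdh5 followed it with -0.34, 0.67, 0.73 and 0.37. In all 4 of these genes litter A was negative, and in Flt1 and Cdh5 the other 3 litters were all positive. Cldn5 was positive in litter C alone, with -0.80, -0.83, 0.58 and -0.46.

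The interaction test, which has 3 residual degrees of freedom, called 0 of the 10 members and 0% of 16779 genes (edgeR adjusted p under 0.05). At an unadjusted p under 0.05 it held 3 of the 10 members against 3.87% of all genes. The test of litter itself called 0 of the 10, against 0.0885% of all genes, and Egfl7 had the smallest p (edgeR 0.00504 unadjusted, 0.180 adjusted). That gene was highest in litter D, with a mean of 6.43 log2 CPM, and lowest in litter B, with 5.81. At an unadjusted p under 0.05 the litter test held 1 of 10 members against 13.5% of all genes.

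**Figure D3:**
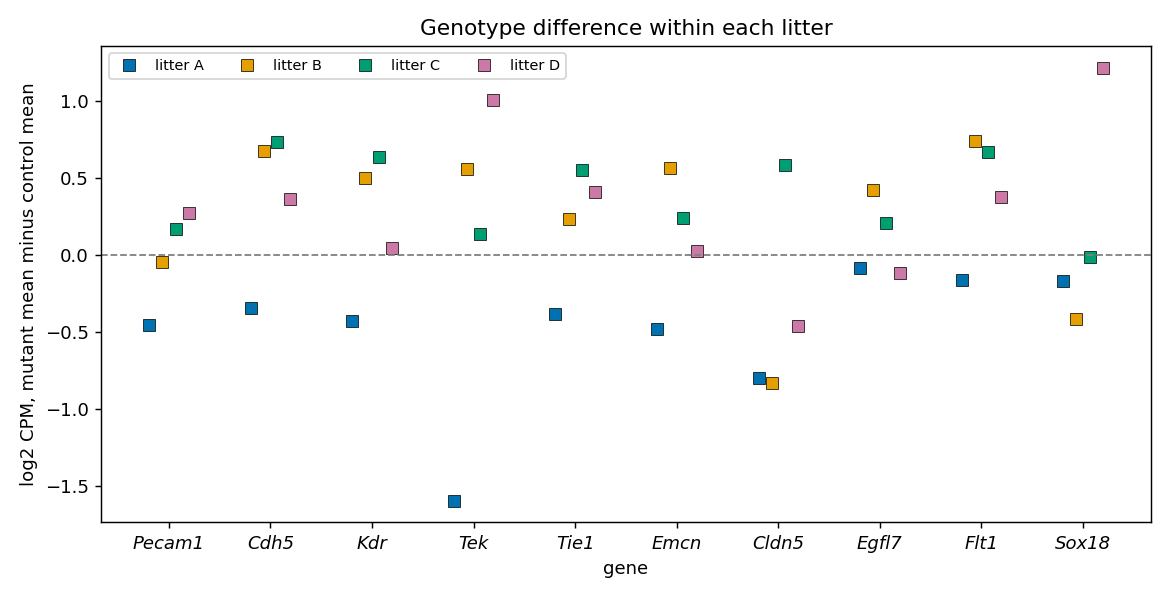
For each gene the squares give the mutant mean minus the control mean of log2 CPM within each of the 4 litters, with 0 dashed. The litter A squares lie below 0 for all 10 genes, and the squares of the other litters lie mostly above it, with Tek reaching from -1.59 to 1.01. Litter A includes mutant 2, the lowest of the 11 libraries in 7 of the 10 genes.

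Vessels carry the blood, and the relation of the members to blood content was examined through the globin genes. Globin CPM was 13990, 33510, 13030, 15850 and 22770 in controls 1 to 5. Mutants 1 to 6 had 16360, 57170, 27720, 21130, 27770 and 26300. The groups overlapped, with mutant 2 highest. None of the 8 globin genes tested passed the genotype test, although all 8 fold changes were positive, with a median of 0.66. At an unadjusted p under 0.05 there were 2, against 21.4% of all genes (edgeR), and DESeq2 and limma-voom called 0. The 2 with the smallest p were the adult beta globins Hbb-bt (1.19, SE 0.48, edgeR adjusted p 0.182) and Hbb-bs (1.73, SE 0.79, edgeR adjusted p 0.233), whose near-identical sequences make the split of reads between them uncertain. Both genes were highest in mutant 2, which had 226.1 CPM of Hbb-bt and 590.6 CPM of Hbb-bs, where the mutant medians were 25.5 and 18.3 CPM. Without it the values were 0.38 and 0.30 (edgeR adjusted p 0.389 and 0.741). Both genes passed without a filter on low counts, a setting in which 1566 of 29256 genes were called.

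With litter and genotype in the model, no member was related to globin content at an adjusted p under 0.05 (edgeR), against 0.202% of all genes. The slope per doubling of globin was negative in 7 of the 10 genes and had a median of -0.16, where the median of all genes was -0.0099. Pecam1 had the steepest slope, -0.36 per doubling (SE 0.12, edgeR unadjusted p 0.0137, adjusted p 0.336). It was followed by Tie1 with -0.32 (SE 0.15, edgeR adjusted p 0.401) and Cldn5 with -0.31 (SE 0.23, edgeR adjusted p 0.590). Emcn (0.13), Tek (0.16) and Egfl7 (0.11) had positive slopes. At an unadjusted p under 0.05 there was 1 member, against 12.8% of all genes.

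The test did find genes of the red cells. It called 32 genes, of which 31 were higher with more globin. They included 7 globin genes and 7 others of the red cell list, such as Alas2, an enzyme of heme synthesis (0.85 per doubling). The globin genes enter the measure themselves. Of the 19 red cell genes other than globins, all had positive slopes (median 0.74). The 1 gene called lower was Eif2s3y, on the Y chromosome (-2.98 per doubling, edgeR adjusted p 0.0411). Embryo sex was not in any of the models, so sex and globin content cannot be told apart in this slope.

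The sign of 6 of the 10 slopes turned when a single library was left out. Pecam1, Tie1 and Sox18 stayed negative and Egfl7 stayed positive in every alternative run. Without mutant 2, 7 of the 10 slopes were positive and the median was 0.15 in place of -0.16. The Pecam1 slope was then -0.10 (edgeR adjusted p 0.886). Emcn had 0.49 (edgeR unadjusted p 0.000161, adjusted p 0.0844), Tek 0.73, Kdr 0.27 and Egfl7 0.27. Without control 2 the opposite was seen, with 9 of the 10 slopes negative and a median of -0.38. These 2 libraries, both of litter A, had the most globin. One had the highest and the other the lowest summed endothelial level.

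With globin as a covariate, the genotype effect still had 0 members at an adjusted p under 0.05 (0.0695% of all genes were called, edgeR). Flt1 then had 0.40 (edgeR unadjusted p 0.0376, adjusted p 0.306). The sign turned for Pecam1, to 0.12, and for Egfl7, to -0.0012, and it was kept in the other 8 members.

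**Figure D4:**
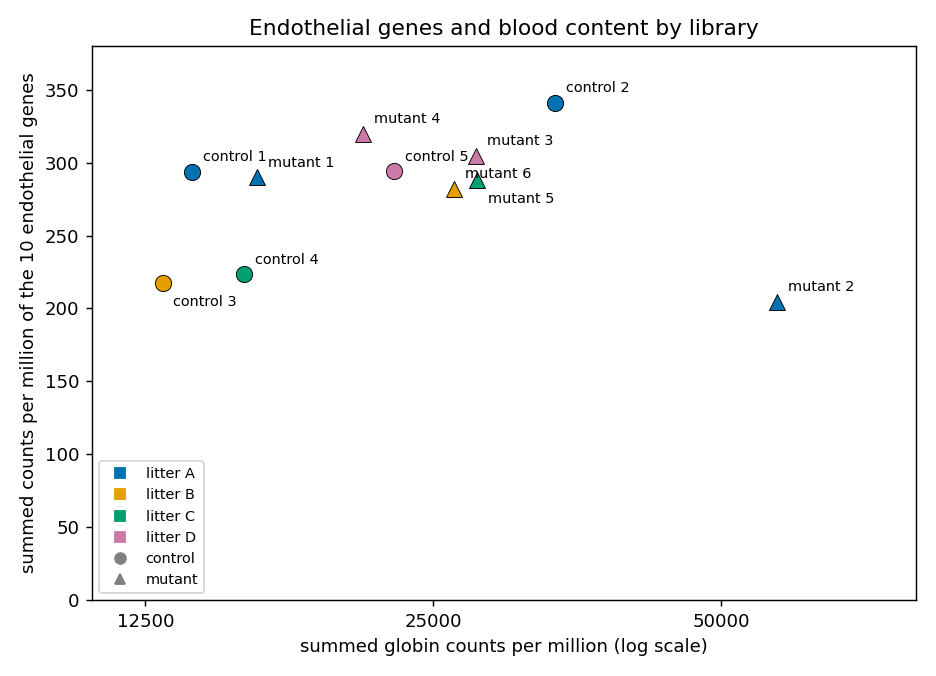
Each point is 1 library, with the summed globin CPM on a log axis and the summed CPM of the 10 endothelial genes on a linear axis from 0 (circles control, triangles mutant, colours litters). Control 2 and mutant 2 lie at the right, at 341.0 and 204.5 CPM of endothelial genes, the highest and the lowest of the 11 libraries.

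Markers of other cell types in the buds were counted beside these results. Of the 16 macrophage genes tested, 0 passed with edgeR and 15 had a positive value, with a median log2 fold change of 0.68 and an unadjusted p under 0.05 in 4, against 21.4% of all genes. DESeq2 called 2 of them, Fcer1g and Tyrobp, and limma-voom 0. Over all 15821 genes DESeq2 called 1194 and limma-voom 439. Tyrobp, a signalling adaptor of myeloid cells, had 1.51 (SE 0.38, edgeR adjusted p 0.0555) and Aif1 had 1.34 (SE 0.41, edgeR adjusted p 0.0918). The summed macrophage level was 13.5 to 70.9 CPM in controls and 30.0 to 92.0 CPM in mutants, so the ranges overlapped. In the test of litter, 14 of the 16 macrophage genes had an unadjusted p under 0.05, against 13.5% of all genes, and 0 passed (edgeR). Of the 8 platelet genes tested, which matter because platelets also carry Pecam1, 0 passed (edgeR, DESeq2 and limma-voom) and 1 had an unadjusted p under 0.05. The sums were 23.6 to 85.5 CPM in controls and 27.6 to 71.8 CPM in mutants. Treml1, a receptor of platelets, had 0.57 (edgeR adjusted p 0.552). The part of these cells in the members' values was not tested.

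Of the 19 red cell genes other than globins, 1 passed, against 2.18% of all genes. This was Cited4, higher in mutants (1.44, SE 0.33, edgeR adjusted p 0.0485). Leaving out any 1 library other than control 5 lost that call, as did limma-voom, the fit without the litter block (edgeR adjusted p 0.0545), the globin covariate (0.130) and the T-run index (0.58). Mural cells, which wrap the vessels, had 0 of 9 genes called (edgeR, DESeq2 and limma-voom). At an unadjusted p under 0.05 there were 3, against 21.4% of all genes (edgeR). The mural sum was 351.1 CPM in control 2 and 138.1 to 167.9 CPM in the other controls, while the mutants had 123.7 to 145.9 CPM. Acta2, smooth muscle actin, had 164.9 CPM in control 2 and a log2 difference of -2.06 (SE 0.79, edgeR adjusted p 0.168), and Pdgfrb, the receptor of pericytes, had -0.28 (edgeR adjusted p 0.222). The high sum of control 2 came mainly from Acta2 and from Tagln, another smooth muscle gene (48.4 CPM). Pdgfrb was 67.3 CPM in that library, below control 1 (90.1 CPM) and control 3 (75.3 CPM).

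Genes of the other tissues of the limb bud were counted too. Of 10 mesenchyme genes, 1 was called, against 2.18% of all genes, and 7 had an unadjusted p under 0.05 (4 higher and 3 lower), against 21.4%. The gene called was Lhx9, lower in mutants (-0.50, SE 0.10, edgeR adjusted p 0.0406). Its call was lost when any 1 of 9 libraries was left out, the exceptions being control 5 and mutant 2. The edgeR adjusted p was 0.0528 without the litter block, 0.128 with the globin covariate and 0.336 with the T-run index. DESeq2, which called 1194 of 15821 genes, also called Pdgfra. Of 10 ectoderm genes 0 were called and 1 had an unadjusted p under 0.05 (edgeR), with Sp8 at -0.32 and Krt8 at -0.42. Of 6 muscle precursor genes 0 were called with edgeR (3 at an unadjusted p under 0.05) and 1, Lbx1, with DESeq2. Lbx1 had 0.82 and Myf5 -1.25. Of 5 genes of neural crest and Schwann precursors 0 were called and 2 had an unadjusted p under 0.05 (edgeR).

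The ligands and further receptors of the VEGF and angiopoietin pathway were read in the same way. Of 15 genes tested, 0 passed (edgeR, DESeq2 and limma-voom), and the median log2 fold change was 0.03. An unadjusted p under 0.05 was seen in 2, against 21.4% of all genes (edgeR). The ligand Vegfa was 7.02 ± 0.876 CPM in controls and 8.65 ± 1.19 CPM in mutants (SD, n = 5 and 6). Its log2 fold change was 0.29 (SE 0.14, edgeR adjusted p 0.256). Vegfc, which acts on Flt4, had 0.43 (SE 0.20, edgeR adjusted p 0.248). Figf, the gene of VEGF-D, had 0.30 (SE 0.11, edgeR adjusted p 0.152). Vegfb (0.03) and Pgf (0.24), ligands of Flt1, were not called either.

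Among receptors, Flt4 (VEGFR3) had -0.10, and the co-receptors Nrp1 and Nrp2 had 0.02 and 0.06. The guidance factor Sema3a, a ligand of Nrp1, had -0.44 (SE 0.17, edgeR adjusted p 0.164). For the Tek axis, Angpt1, the activating ligand, had -0.32, Angpt2, the ligand that often opposes it, had -0.09, and Ptprb, the phosphatase that acts on Tek, had 0.32. The adjusted p of these 3 was 0.467, 0.828 and 0.5 (edgeR).

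Of the 34 other endothelial genes, 0 passed with edgeR or DESeq2 and 1, Cd36, with limma-voom, which called 439 of 15821 genes. In all, 21 values were positive and 13 negative, with a median of 0.06, as in the members. Cd36, a fatty acid receptor of capillaries that macrophages also carry, had 2.21 ± 0.896 CPM in controls and 1.04 ± 0.362 CPM in mutants (SD, n = 5 and 6). Its log2 fold change was -1.17 (SE 0.28, edgeR adjusted p 0.0515). Icam2, an adhesion molecule of endothelial cells, had 0.30 (SE 0.11, edgeR adjusted p 0.141). At an unadjusted p under 0.05 there were 6 of the 34, 2 higher and 4 lower, against 21.4% of all genes (edgeR).

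Among genes of arterial, venous and lymphatic identity, 2 of the 17 tested passed, both lower in mutants, against 2.18% of all genes in either direction. Pdpn, a lymphatic marker that other cells of the embryo also express, was 63.7 ± 16.5 CPM in controls and 38.1 ± 5.24 CPM in mutants (SD, n = 5 and 6). It fell by 0.66 on the log2 scale (SE 0.11, edgeR adjusted p 0.0291). Nr2f2 (COUP-TFII), the factor of venous identity, which limb mesenchyme also expresses, was 169.6 ± 18.5 CPM in controls and 121.2 ± 17.2 CPM in mutants (SD, n = 5 and 6). It fell by 0.49 (SE 0.09, edgeR adjusted p 0.0353). The longest run of T over a gene's annotated transcripts was 22 bases in Pdpn and 19 in Nr2f2, where the members have at most 13. Among other genes called, it was 15 in Lhx9, 5 in Gmnn and 4 in Cited4. Sp8 and Myf5, which were not called, had 22 bases each. In the fit that adds the T-run index, Pdpn had -0.58 and Nr2f2 -0.29, and neither passed (edgeR adjusted p 0.240 and 0.283). That fit called 2 of 15821 genes, and the part of T runs in these values was not tested. Nor did Pdpn or Nr2f2 pass with the globin covariate (0.108 and 0.111) or without the litter block (0.0501 each). Leaving out 1 library at a time, Pdpn lost its call in 8 of 11 fits and kept it only without control 2, control 5 or mutant 2. Nr2f2 lost it in 9 of 11 and kept it only without control 5 or mutant 2, and the edgeR adjusted p reached 0.140 in both genes. Lyve1, the lymphatic hyaluronan receptor, had too few reads to be tested.

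The Notch axis of arteries was not called: Dll4 had 0.08, Notch1 -0.02, Notch4 0.27 and the arterial ligand Efnb2 -0.11. Its venous receptor Ephb4 had 0.02. Of the 12 genes of the response to hypoxia, a stimulus for Vegfa, 0 passed (edgeR). An unadjusted p under 0.05 was seen in 2, against 21.4% of all genes (edgeR). Bnip3 had -0.33 (edgeR adjusted p 0.131) and Kdm3a -0.23 (edgeR adjusted p 0.230).

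The order of the members' levels was read per length, as CPM per kilobase of exon (FPKM). In controls Egfl7 was highest, at 19.3 ± 5.05 FPKM (SD, n = 5), followed by Cldn5 at 14.2 ± 3.88 and Emcn at 12.3 ± 3.20 FPKM. Neighbours among these 3 did not differ beyond their SD. Next came Cdh5 at 5.66 ± 1.20 FPKM, and the step from Emcn to Cdh5 was the only one in the order that exceeded the spread. Below it lay Pecam1 (4.68), Sox18 (3.53), Tie1 (3.04), Kdr (2.58), Tek (1.94) and Flt1 (0.988 FPKM), with no neighbours apart beyond their SD.

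The members also differed in how steady they were across the 11 libraries. Egfl7 had the lowest coefficient of variation, 19%, and Emcn, Pecam1, Flt1, Tie1, Kdr and Cdh5 had 19.9 to 23.6%. Tek had 44.5%, Cldn5 36% and Sox18 30.2%. Between the lowest and highest library, Tek ranged over 4.82-fold and Cldn5 over 3.54-fold, and Flt1, the narrowest, over 1.83-fold.

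Other genes followed the members across libraries. The 11896 genes compared had a mean of at least 1 CPM, with the members and predicted, clone and mitochondrial names left out. Among them, the 10 with the highest Pearson r of log2 CPM with the members' mean standardised level over the 11 libraries were Notch4 (0.922), Itga5 (0.903), Cd93 (0.896), Ric8 (0.871), Tbc1d9b (0.858), Igf2r (0.854), Adgrf5 (0.844), Pde2a (0.834), Antxr2 (0.834) and Fzd4 (0.833). Notch4, Cd93 and Adgrf5 were in the lists of vessel genes used here. Over the 34 other endothelial genes the median r was 0.537, and 18 of them had r above 0.5, against 5.78% of the 11896 genes compared (median 0.0249). None of the 10 passed the genotype test, with adjusted p of at least 0.584 (edgeR).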

How the data were processed

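The 11 RNA-seq libraries of forelimb bud tissue were analysed from the deposited table of raw counts, with 1 row per gene name. Per the file headers, the authors counted reads with featureCounts 1.4.6-p4 on mm10 with the GENCODE M9 annotation, at a mapping quality of at least 10 and with no strand option. Per the submitters' processing notes, reads were aligned with STAR 2.5.4b. Genotype and litter come from the labels. The design text gives litter-matched pairs, so litter is a block in the model. The header lists 12 alignments, but counts were given for 11 libraries (5 control and 6 mutant), so the groups are not complete pairs. As a check, deviations from group means correlated at -0.163 to 0.369 (median 0.13) over 8 pairs of the same litter and at -0.333 to 0.171 (median -0.0199) over 22 pairs of different litters. No pair of libraries within a group agreed within sampling noise (lowest chi-square per degree of freedom 6.82).

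Counts were filtered with edgeR 4.0.16 (filterByExpr), which left 15821 genes with 99.9% of the counts, and TMM-scaled in R 4.3.3. Tests were two-sided quasi-likelihood F tests with Benjamini-Hochberg adjustment over all genes and a threshold of 0.05. CPM use the scaled library sizes, with a prior count of 2 on the log2 scale, and FPKM used the exon lengths of the table. Globin content is log2 of the summed CPM of the globin genes. DESeq2 1.42.0 and limma 3.58.1 (voom) were alternatives, with other scalings, filters, covariates and each library or litter left out. Scripts were tested on simulated data. The members and lists were chosen with earlier results of these data known. Beside the members, the genes named were a fixed set of vessel genes and, in each list, up to 4 that passed or else the 2 with the smallest p. Some list genes are not reported here.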

Additional observations from a re-analysis of the deposited data

Results flagged for a closer look

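Mutant 2 lay far below the other mutants in 4 measures, by the ratio of its gap to the range of the group. Cdh5 was 3.907 log2 CPM in mutant 2, where the next lowest mutant had 4.68. Tie1 was 3.523 log2 CPM in mutant 2, against 3.945 in the next. Flt1 was 3.456 log2 CPM, against 4.086. The summed level of the 10 endothelial genes was 204.5 CPM, against 282.0. The same library was lowest of the 11 in the summed level of the 34 other endothelial genes (482.9 CPM) and highest in globin (57170 CPM) and in other red cell genes (541.5 CPM). The endothelial sum is weighted by its abundant genes, such as Ets1 (33.5 CPM in mutant 2 and 112.1 in control 4) and Fli1 (54.7 and 97.1 CPM). The order of the libraries without these genes was not tested. Of 52 comparisons in 26 groups, the 4 measures of mutant 2 named first were the ones flagged, where chance gives about 1.3, and the genes are not independent of each other.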

How the results depend on the processing

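No member passed the genotype test in 24 of 25 alternatives, and 0 passed the test on globin content in all 17. Without a filter on low counts 1 member passed for genotype (Cldn5), 2 for litter and 2 for the interaction. In that setting 1566 of 29256 genes were called for genotype, and 1583 and 438 genes for litter and the interaction. At 53 to 1811 reads per member and library, the intervals of the genotype effect cover differences of less than 2-fold for 9 of the 10 members.

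The number of all genes called for genotype (345) was 1566 without a filter, 550 with a filter of 1 CPM in 5 libraries, 1194 with DESeq2, 11 with globin content as a covariate and 2 with the T-run index. Leaving out a library or litter gave 1 to 850. For litter (14) it was 2 with upper-quartile scaling, 1583 without a filter, and 0 to 87 leaving out a library. For the interaction (0) it was 438 without a filter. For globin content (32) it was 64 without a filter, and 10 to 40 leaving out a library.

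Without the replicate block of litters, 16 genes were called for genotype and 0 of the members, and the fold changes of Nrp1 and Nrp2 turned to -0.053 and -0.038. Gmnn, Pdpn, Nr2f2, Lhx9 and Cited4 lost their calls. The block changed no call among the members.

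With the T-run index the median log2 fold change of the members was 0.51 in place of 0.06. That covariate turned Pecam1 to 0.48, Tek to 0.68, Emcn to 0.18, Cldn5 to 0.17, Vegfb to -0.093, Flt4 to 0.43, Angpt1 to 0.22, Notch1 to 0.057, Efnb2 to 0.013, Hbb-bt to -0.46, Hbb-bs to -1.18 and Pdgfrb to 0.11. Globin content as a covariate turned Pecam1 to 0.12, Egfl7 to -0.0012, Flt4 to 0.028 and Notch1 to 0.040. Upper-quartile scaling turned Emcn to 0.0037 and Notch1 to 0.024. The cause was not tested.

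Leaving out a library or litter, log2 fold changes ran from -0.16 to 0.14 for Pecam1, 0.15 to 0.57 for Cdh5, -0.62 to -0.20 for Cldn5, 0.22 to 0.58 for Flt1, -0.059 to 0.36 for Kdr, -0.63 to 0.60 for Tek, -0.0037 to 0.40 for Tie1, -0.17 to 0.25 for Emcn, -0.029 to 0.14 for Egfl7 and -0.20 to 0.33 for Sox18. Outside the members they ran from -0.037 to 0.11 for Vegfb, -0.29 to 0.23 for Flt4, -0.11 to 0.31 for Nrp1, -0.064 to 0.21 for Nrp2, -0.54 to 0.057 for Angpt1, -0.29 to 0.036 for Angpt2, -0.0076 to 0.23 for Dll4, -0.090 to 0.082 for Notch1 and -0.058 to 0.19 for Ephb4. The slopes on globin content ran from -0.49 to 0.17 for Cdh5, -0.22 to 0.27 for Kdr, -0.57 to 0.73 for Tek, -0.14 to 0.49 for Emcn, -0.61 to 0.12 for Cldn5 and -0.33 to 0.12 for Flt1. For all 6 slopes the lowest value came without control 2 and the highest without mutant 2.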
